A study of Mus musculus with 6 samples.

Results

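Eph receptors are the largest family of receptor tyrosine kinases, and ephrins are their membrane-bound ligands, so that a signal passes only between touching cells. The genes described here are 10 listed by name, the receptors Epha3, Epha4, Epha5, Epha7, Ephb2, Ephb3 and Ephb4 and the ligands Efna1, Efnb1 and Efnb2. A member was read by each probe set, the group of probes on the array that reports 1 transcript, whose only gene symbol in the platform annotation is that name. This gave 8 probe sets for 8 of the 10 genes, 5 receptors and 3 ligands, among 15153 genes read by 16311 probe sets with a single symbol. Epha3 and Ephb2 were matched to none and were not analysed here.

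The tissue was presomitic mesoderm, the unsegmented mesoderm at the tail end of the embryo, microdissected from mouse embryos at embryonic day 9.5 with 17 to 19 somites. Mutant embryos were TCre/+;Taf10flox/flox, in which the Cre recombinase driven by sequences of the T (Brachyury) gene deletes the floxed Taf10 alleles in the mesoderm that arises from T-expressing progenitors, and control embryos were Taf10Flox/+ or Taf10flox/flox and are labelled WT. All animals of both groups thus carried at least 1 floxed Taf10 allele, and the labels do not say how the control genotypes were mixed in a pool. Each of the 6 arrays read a pool of 3 dissected tissues, with 3 mutant and 3 control pools that the labels call biological replicates, so p-values measure the spread between pools. The comparison asks how expression differs when TAF10, a subunit of the general transcription factor TFIID and of the coactivator SAGA, is deleted.

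In presomitic mesoderm these genes are known for building the border between one somite and the next. EphA4 marks the anterior part of the forming segment, where the transcription factor MESP2 switches it on in mouse, and ephrin-B2 lies in the posterior part of the somite ahead of it, so that receptor and ligand face each other across the gap that opens. Class A receptors bind mostly GPI-anchored ephrin-A ligands and class B receptors mostly transmembrane ephrin-B ligands, and EphA4 is known to bind both classes. The same family guides axons in the neural tube, and ephrin-B2 and EphB4 mark arteries and veins.

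The tissue label was checked against markers. Tbx6, Msgn1 and Hes7, which define presomitic mesoderm, had log2 intensities of 12.47 to 12.77, 12.36 to 12.71 and 11.01 to 11.09 in mutant pools, against 11.90 to 12.09, 12.02 to 12.27 and 10.47 to 10.60 in control pools, and T has no probe set in the table. Of 12 presomitic genes, 11 were measured, and limma called Tbx6 and Hes7 higher and Cdx4, Cyp26a1 and Rspo3 lower in mutants (log2 changes of -0.60, -0.74 and -0.74), with a median of -0.013. Over all genes, limma called 5.92%. The neural gene Sox2 (5.91 to 6.15 in mutant pools, 5.98 to 6.04 in control pools) and the epithelial gene Epcam (5.98 to 6.03 in mutant pools, 6.01 to 6.04 in control pools) lay below the 25th percentile of all values on every array, which was 6.93 to 7.05 in mutant pools and 6.86 to 6.96 in control pools. Sox2 is not typical of its list: of 15 measured neural genes, 2 lay below that percentile in all mutant pools and 1 in all control pools. Of 11 epithelial genes, 5 and 4 did. The presomitic gene Cyp26a1 also lay below it in all mutant pools (6.24, 6.13 and 6.33), against 7.06, 6.86 and 7.01 in control pools. Array medians ran from log2 8.28 to 8.31 in mutant pools and from 8.27 to 8.31 in control pools. Other genes listed for those tissues read higher, and 5 of 15 measured genes listed as neural lay above the array median in every pool. Among them were Foxb1 (9.91 in mutant pools and 9.78 in control pools on average) and Lin28a (10.40 in mutant pools and 10.82 in control pools). Whether Lin28a reads neural tissue here was not tested. Of 11 epithelial genes, 1 lay above the array median in every pool, Krt8 (8.68 in mutant pools and 8.96 in control pools). Of 8 blood genes, 6 were measured and limma called 0, and Hba-x, Hbb-y and Hbb-bh1 lay above the array median in every pool. The summed linear intensity of the 6 was 16720, 14800 and 4093 in mutant pools 1, 2 and 3. In control pools 1, 2 and 3 it was 13350, 9374 and 22580. The part of blood RNA in other values was not tested. Mutant 3 stood apart on the first principal component (33.98, against 3.07 and 4.05 for mutants 1 and 2 and -17.57 to -8.19 for controls). Xist, which is transcribed in females, had log2 intensities of 11.35 to 12.53 in mutant pools and of 12.57, 12.03 and 6.32 in control pools, and the low value of control 3 shows that males and females were not mixed alike in the pools. For some genes, results are therefore also given without these arrays. The probe set that stands for Taf10 had log2 intensities of 10.40, 10.37 and 10.18 in mutant pools and 10.77, 10.61 and 10.69 in control pools (log2 change -0.37, SE 0.08, limma adjusted p = 0.0400). That call was lost with any 1 pool other than mutant 3 left out (adjusted p from 0.0641 without mutant 1 to 0.169 without control 1), with Xist as a covariate (0.0825) and for the mean of both Taf10 probe sets (-0.13, adjusted p = 0.272). A second probe set, at 8.85, 8.93 and 9.19 in mutant pools and 8.95, 8.89 and 8.79 in control pools, did not pass (0.11, SE 0.10, adjusted p = 0.530), and which exons either reads is not known here, so neither checks the deletion.

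Of the 8 genes measured, limma called 0 changed between mutant and control presomitic mesoderm at an adjusted p under 0.05, where 5.92% of all genes were called in either direction. At an unadjusted p under 0.05, a level passed by 22.7% of all genes, 3 members were lower in mutants (Epha7, Epha4 and Efnb2) and 0 were higher. These are also the members whose mutant and control pools did not overlap, as in 32.3% of all genes. All 3 had the mutant pools below, as did 15.1% of all genes, and 0 had them above, as did 17.2% of all genes. The median log2 change of the 8 was -0.21, with 6 negative and 2 positive values, beside a median of 0.03 over all genes. In tissue samples, fewer cells of a type and less RNA per cell cannot be told apart.

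The sequences before the start sites of the 3 members whose groups did not overlap, and of Efna5, the family ligand with the smallest p, are shown because TFIID binds core promoters. They are RefSeq promoters of build GRCm38.p6, the 150 bases up to the start site, written 5′ to 3′ on the strand of the gene. Capitals mark matches to any of 3 motifs, each searched on both strands. The first is the TATA box with the letters TATAAA, which on the opposite strand reads TTTATA. The second is the motif CCAAT, which there reads ATTGG. The third is the GC box with the letters GGGCGG, which there reads CCGCCC. No 2 marked motifs overlap.
Epha4, chr1:77515089-77515238, minus strand: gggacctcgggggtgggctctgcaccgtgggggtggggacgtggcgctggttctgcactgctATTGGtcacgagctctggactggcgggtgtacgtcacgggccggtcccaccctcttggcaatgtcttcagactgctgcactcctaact
Epha7, chr4:28812981-28813130, plus strand: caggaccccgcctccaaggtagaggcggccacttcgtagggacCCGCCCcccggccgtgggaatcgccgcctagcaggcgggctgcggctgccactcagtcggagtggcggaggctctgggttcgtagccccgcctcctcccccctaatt
Efnb2, chr8:8661243-8661392, minus strand: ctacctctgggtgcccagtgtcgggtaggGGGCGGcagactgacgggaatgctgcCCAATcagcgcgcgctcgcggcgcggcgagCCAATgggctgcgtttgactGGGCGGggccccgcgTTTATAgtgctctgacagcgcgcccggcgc
Efna5, chr17:62881318-62881467, minus strand: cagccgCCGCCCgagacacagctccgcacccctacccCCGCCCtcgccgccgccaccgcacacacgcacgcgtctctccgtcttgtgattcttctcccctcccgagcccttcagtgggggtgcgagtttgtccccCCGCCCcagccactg

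All 10 listed genes matched the promoter table, with 12 start sites between them, since Epha7 and Efna1 have more than 1, and the first listed is shown for Epha7. Over the 250 bases before each start site, 1 of the 12 promoters held TATAAA (that of Efnb2, with its first base at position -30 from the start site), 7 held CCAAT and 9 held GGGCGG. Among all 32851 promoters in the table, 12.4%, 33.8% and 32.7% held these motifs. The E-box letters CANNTG, which basic helix-loop-helix factors such as MESP2 recognise, occurred in 4 of the 12 and in 66.2% of all promoters, and in none of the 4 windows printed. These matches describe letters and not binding.

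Epha4, the receptor of the forming boundary, had log2 intensities of 10.98, 10.87 and 10.60 in mutant pools 1, 2 and 3, against 11.09, 11.27 and 11.19 in control pools 1, 2 and 3. All mutant pools lay below all controls, mutant 3 lowest, and the closest mutant and control pools were 0.12 apart. The mean was 10.82 ± 0.19 in mutant pools and 11.19 ± 0.09 in control pools (SD, n = 3 each). The log2 change of -0.37, or 77.4% of control (SE 0.10, 95% interval -0.61 to -0.13), did not pass in limma (adjusted p = 0.0826). The exact two-sided permutation test gave p = 0.1, the smallest that 3 against 3 pools allow. Without mutant 3 the change was smaller and passed (-0.26, SE 0.07, limma adjusted p = 0.0462), and without both mutant 3 and control 3 it did not pass (-0.26, limma adjusted p = 0.0731). Leaving out mutant 3 also raised the calls over all 15153 genes from 897 to 1945.

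Epha7, a receptor for ephrin-A ligands that also has a role in neural tube closure in mouse, read 7.53, 7.48 and 7.34 in mutant pools and 7.77, 7.83 and 7.70 in control pools. The groups did not overlap, with a gap of 0.17, and mutant 3 was again lowest. The mean was 7.45 ± 0.10 in mutant pools and 7.76 ± 0.07 in control pools (SD, n = 3 each). The log2 change was -0.31, or 80.5% of control (SE 0.07, 95% interval -0.49 to -0.14), the smallest p among the members, and it lay just outside the threshold (limma adjusted p = 0.0509). It passed without mutant 3 (-0.26, limma adjusted p = 0.0289), where 1945 of all 15153 genes were called. It also passed without mutant 3 and control 3 together (-0.29, limma adjusted p = 0.0215), where 2125 were called. It did not pass without any 1 of the other 5 pools, with limma adjusted p from 0.0763 (without mutant 1) to 0.214 (without control 2). The permutation test was again at its exact floor of p = 0.1.

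Epha5, a receptor best known from axon guidance, had values of 8.13, 7.86 and 7.70 in mutant pools, around the 7.99, 8.03 and 7.99 of control pools. Mutant 1 lay above and mutants 2 and 3 below the controls, so the mutant pools spread over 0.43 and the controls over 0.04. The log2 change was -0.10 (95% interval -0.35 to 0.14, limma adjusted p = 0.595), so changes within that interval cannot be told from none. Without mutant 3 it was -0.0032.

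Of the listed class B receptors, Ephb3 and Ephb4 were measured, and neither passed. Ephb3, a receptor for ephrin-B ligands, read 8.47, 8.41 and 8.61 in mutant pools and 8.50, 8.39 and 8.42 in control pools, a log2 change of 0.06 (95% interval -0.11 to 0.24, limma adjusted p = 0.651). Its groups overlapped, and mutant 3 was the highest pool. Ephb4, the receptor that marks veins and binds ephrin-B2, read 10.49, 10.41 and 10.43 in mutant pools and 10.33, 10.27 and 10.42 in control pools. Mutants 1 and 3 lay above the highest control, but the change of 0.10 did not pass (95% interval -0.05 to 0.25, limma adjusted p = 0.407).

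**Figure D1:**
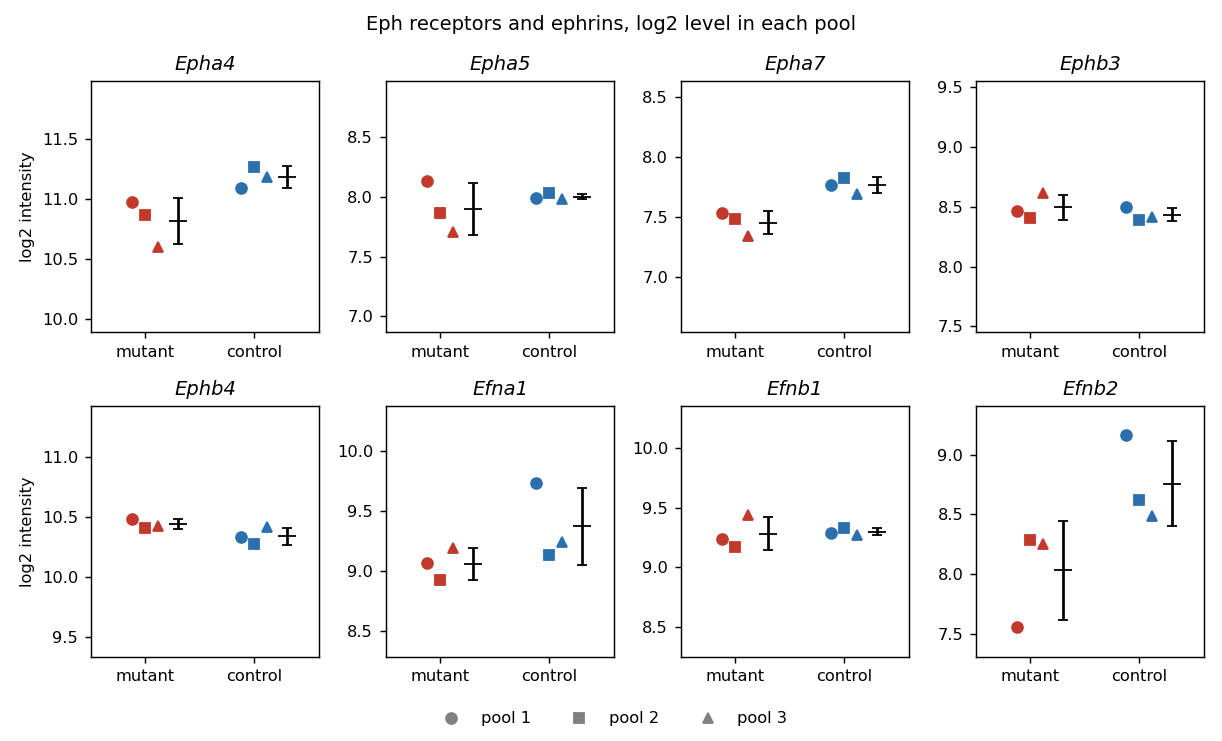
Log2 intensity (y axis) of the 8 measured Eph receptors and ephrins in each mutant (red) and control (blue) pool, with the mean and SD in black; every panel spans the same range of log2 units. Mutant and control pools are separate for Epha4, Epha7 and Efnb2, whose mutant means are 0.37, 0.31 and 0.73 below control, and overlap for the other 5 genes.

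Among the ligands, Efnb2, which encodes ephrin-B2 of the posterior somite and of arteries, had the largest change in size of all members and the widest spread. Its log2 intensities were 7.56, 8.28 and 8.26 in mutant pools and 9.16, 8.62 and 8.49 in control pools. The groups did not overlap, the gap between them was 0.21, and mutant 1 and control 1 were the extremes. The mean was 8.03 ± 0.41 in mutant pools and 8.76 ± 0.36 in control pools (SD, n = 3 each). The log2 change of -0.73, or 60.5% of control (SE 0.23, 95% interval -1.26 to -0.19), did not pass (limma adjusted p = 0.110). It was -0.49 without mutant 1 (limma adjusted p = 0.179) and -0.52 without control 1 (0.335), against -0.84 without mutant 3 (0.0605). With mutant 3 and control 3 both left out it was -0.97 and passed (limma adjusted p = 0.0454), where 2125 of all 15153 genes were called.

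Efna1, a GPI-anchored ligand of class A receptors that endothelial cells also make, read 9.06, 8.92 and 9.19 in mutant pools and 9.74, 9.13 and 9.24 in control pools. Control 1 stood 0.50 above the next control, and mutant 3 lay above control 2, so the groups overlapped. The log2 change was -0.31, or 80.4% of control (SE 0.15, 95% interval -0.67 to 0.04, limma adjusted p = 0.274). Without control 1 it was -0.13 (limma adjusted p = 0.620). It was -0.38 without mutant 3 (0.176) and -0.44 without mutant 3 and control 3 together (0.144).

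Efnb1, the X-linked ephrin-B1 gene, read 9.24, 9.17 and 9.44 in mutant pools and 9.29, 9.33 and 9.27 in control pools. Mutants 1 and 2 lay below and mutant 3 above all controls. The log2 change was -0.02 (95% interval -0.21 to 0.17, limma adjusted p = 0.917), and it was 0.019 after quantile normalization and 0.0074 after each array's trend over level was taken out. With the level of Xist as a covariate the change was -0.02 (SE 0.10). Control 3, the pool with the low Xist level, had an Efnb1 intensity within 0.06 of the other controls.

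Markers of endothelium, which makes ephrin-B2 and ephrin-A1, varied between pools of the same group. Of 14 endothelial genes, all measured, 0 were called by limma, where 5.92% of all genes were called. At an unadjusted p under 0.05, a level passed by 22.7% of all genes, 0 passed. The log2 change was negative for 11 of the 14, as for 6158 of all 15153 genes, and the median of the 14 was -0.13. The summed linear intensity of the 14 was 1804, 2828 and 1824 in mutant pools 1, 2 and 3 and 3398, 1892 and 2294 in control pools 1, 2 and 3. Cdh5, the cadherin of endothelial junctions, was highest in control 1 (9.73) and mutant 2 (9.13), against 7.16 in mutant 1, 6.85 in mutant 3, 7.49 in control 2 and 8.20 in control 3. Control 1 was thus the highest pool for Efnb2, Efna1 and Cdh5, and mutant 2, the highest mutant for Cdh5, was also the highest mutant for Efnb2 (8.28) but the lowest pool for Efna1. The endothelial genes Emcn, Erg, Esam, Pecam1, Sox17, Tek and Tie1 were also highest in control 1. Kdr, Flt1, Egfl7 and Sox18 were instead highest in mutant 2, Cldn5 in control 2 and Etv2 in mutant 3. Most of these levels were low. Of the 14 genes, 1 (Egfl7) lay above the array median in every pool. Below the 25th percentile lay 3 in all mutant pools (Erg, Sox17 and Tek) and 2 in all control pools (Erg and Sox17). Some ranks rest on small margins, as for Sox17 (6.25 in control 1 and 6.20 in control 3) and Cldn5 (7.282 in control 2 and 7.277 in mutant 3). Mutant 1 was low for Cdh5 and lowest for Efnb2 (7.56), while mutant 3, the lowest pool for Cdh5, had Efnb2 at 8.26. The part of endothelial RNA in the Efnb2 and Efna1 values was not tested. Of 16 genes listed as neural, 15 were measured, with a summed intensity of 5257 to 5478 in mutant pools and 5376 to 5831 in control pools. Lin28a, on average at log2 10.40 in mutant pools and 10.82 in control pools, was the highest of the 15. The sum thus leans on that 1 gene, whose level was not shown to come from neural tissue, and no sum was taken without it. Limma called 1 lower (Lin28a) and 0 higher, beside 2.96% of all genes in each direction. At an unadjusted p under 0.05, 2 were higher and 1 lower, beside 11.7% and 10.9% of all genes. Of the 15 changes, 11 were positive and 4 negative with a median of 0.08, where 8992 of all 15153 genes were positive and 6158 negative. The part of neural RNA in the Epha4 and Epha7 values was not tested.

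**Figure D2:**
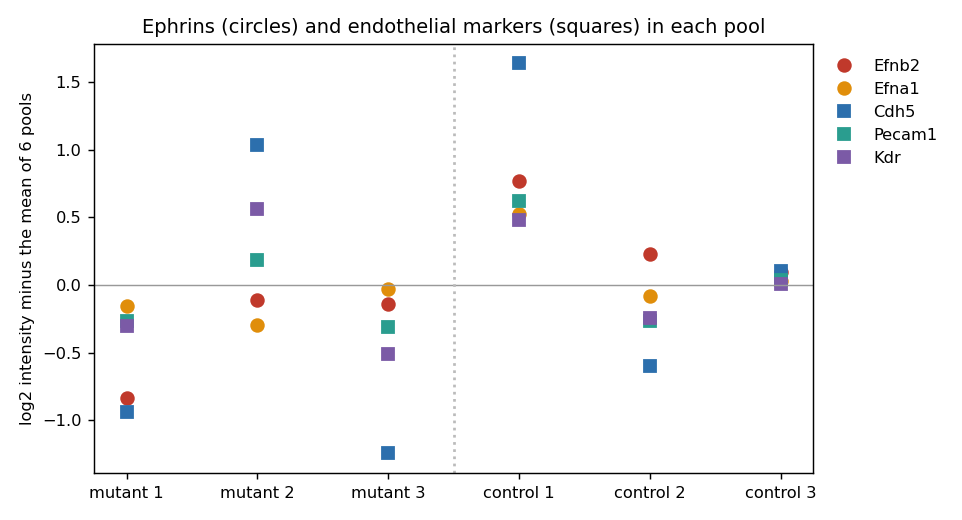
Log2 intensity minus the mean of the 6 pools (y axis) for the ephrins Efnb2 and Efna1 (circles) and the endothelial genes Cdh5, Pecam1 and Kdr (squares) in each mutant and control pool (x axis). Control 1 is the highest pool for Efnb2 (9.16), Efna1 (9.74) and Cdh5 (9.73), and mutant 2, with Cdh5 at 9.13, has Efnb2 at 8.28. Pecam1 is also highest in control 1 (7.56), but Kdr is highest in mutant 2 (7.45, against 7.37 in control 1).

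The other members of the family were read from a list of 12 mouse Eph and ephrin genes, of which 11 had a probe set and Epha6 was matched to none. Limma called 2 of the 11 lower, Efna5 and Efna4, and 0 higher, beside 2.96% of all genes called lower. Efna5, a ligand of class A receptors such as EphA3 and EphA4, read 8.79, 8.83 and 8.83 in mutant pools and 9.65, 9.51 and 9.38 in control pools. Its groups were 0.55 apart, more than the range within either, and the log2 change was -0.70, or 61.6% of control (SE 0.08, 95% interval -0.89 to -0.51, limma adjusted p = 0.00646). That call was kept with every pool left out in turn except control 2 (limma adjusted p = 0.0533). Efna4, another GPI-anchored ligand, read 9.76, 9.76 and 9.88 in mutant pools and 10.20, 10.17 and 10.07 in control pools, and its change of -0.34 on the log2 scale passed (SE 0.07, limma adjusted p = 0.0338). It no longer passed without any 1 pool other than mutant 3, with limma adjusted p of 0.0920 without mutant 1, 0.101 without mutant 2, 0.151 without control 1, 0.156 without control 2 and 0.0688 without control 3, nor after quantile normalization (0.0655). Efna4, Efna3 and Efna1 follow each other on chromosome 3 with 0 other protein-coding genes between them in the RefSeq table, and Efna3 had a log2 change of 0.06 (95% interval -0.30 to 0.43).

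Ephb1, a class B receptor, has 2 probe sets, whose mean passed as lower (log2 change -0.40, SE 0.10, limma adjusted p = 0.0467). Both had lower means in mutants, and the difference between them was not tested. The one with the higher level, matched to RefSeq transcripts, read 7.13, 7.29 and 7.35 in mutant pools and 7.59, 7.31 and 7.70 in control pools (log2 change -0.28, SE 0.11, limma adjusted p = 0.188). The other, matched to a cDNA record only, read 6.39, 6.56 and 6.40 in mutant pools and 7.16, 6.81 and 6.94 in control pools. It passed (-0.52, SE 0.10, limma adjusted p = 0.0272). Leaving out control 1 (adjusted p = 0.103), control 2 (0.0694), control 3 (0.0818) or mutant 1 (0.0729) ended the call. This probe set lay below the array's 25th percentile in all mutant pools (6.93 to 7.05), control 2 (6.93) and control 3 (6.96). It lay above that percentile only in control 1 (6.86). Its call, and that of the mean, thus rest in part on low levels. Efnb3, the third ephrin-B gene, had all mutant pools (8.45, 8.49 and 8.74) above all control pools (8.16, 8.20 and 8.38) without passing (log2 change 0.31, SE 0.10, limma adjusted p = 0.110). It passed with array weights (adjusted p = 0.0124), without control 3 and mutant 3 together (0.0209) and with the replicate block (0.0397). Over the 19 measured family genes, 10 log2 changes were negative and 9 positive.

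**Figure D3:**
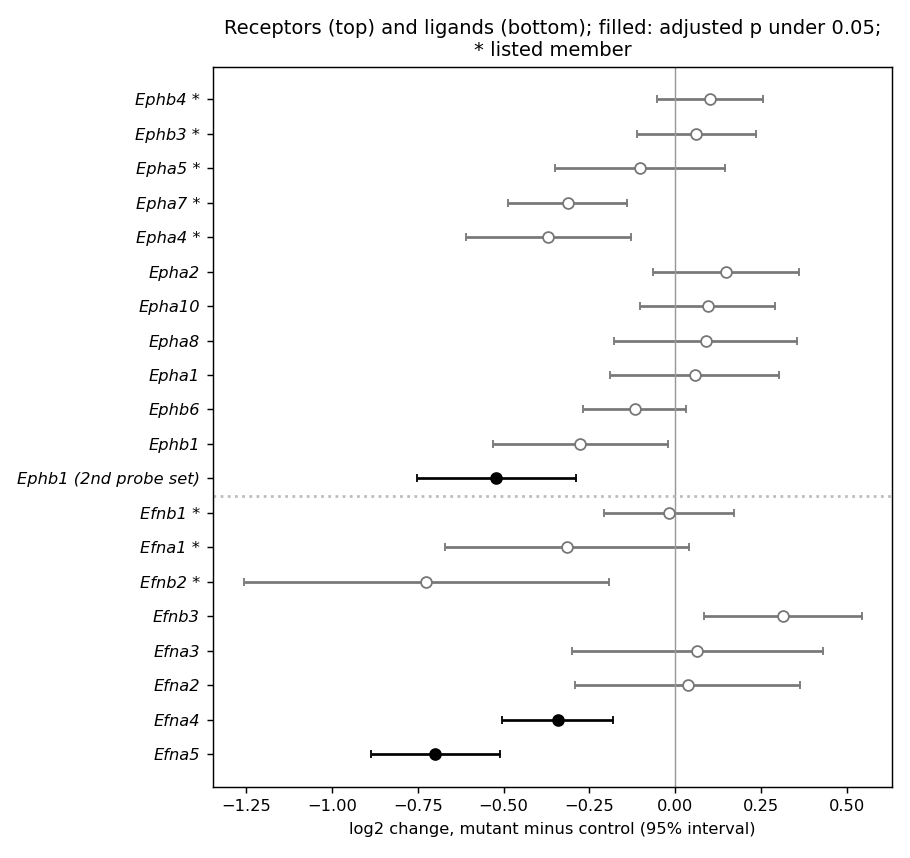
Log2 change, mutant minus control, with its 95% interval (x axis) for each probe set of the 11 measured receptors (top) and 8 measured ligands (bottom); filled points have a limma adjusted p under 0.05 and a star marks the listed genes. Efna5 at -0.70, Efna4 at -0.34 and the second probe set of Ephb1 at -0.52 are filled, and Efnb2 at -0.73 has the widest interval. That Ephb1 probe set lies below the array's 25th percentile in every mutant pool.

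Of 46 listed adaptors, exchange factors, kinases, phosphatases and scaffolds that act downstream of Eph receptors and ephrins, 43 were measured and limma called 0, where 5.92% of all genes were called. At an unadjusted p under 0.05, 3 were higher and 6 lower, beside 11.7% of all genes higher and 10.9% lower. The median log2 change was -0.0040, against 0.03 over all genes. The smallest p was that of Kalrn, a guanine nucleotide exchange factor that works with EphB2 in neurons, at 8.74, 8.73 and 8.78 in mutant pools and 9.08, 8.97 and 8.94 in control pools (log2 change -0.24, SE 0.07, limma adjusted p = 0.0729). Nck1, an SH2-SH3 adaptor that binds activated Eph receptors, had a change of -0.37 (SE 0.12), Afdn, a junction scaffold that binds the tails of Eph receptors, -0.29 (SE 0.09), and the adaptor Shb 0.25 (SE 0.08), and none of these passed.

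Regulators of the segment border, the setting in which Epha4 and Efnb2 act, were taken from a list of 25, all measured. Limma called 1 higher and 1 lower, with a list median of 0.02, where 2.96% of all genes were called in each direction. Tbx6, which acts upstream of Mesp2 and so of Epha4 in mouse, rose (log2 change 0.63, SE 0.09, adjusted p = 0.0129), a call lost without control 1 (0.0800) or control 2 (0.0833). Mesp2 itself read 8.36, 8.74 and 9.12 in mutant pools and 9.23, 8.76 and 8.64 in control pools, with overlapping groups (change -0.14 on the log2 scale, SE 0.21, limma adjusted p = 0.719). Cdh11, a cadherin of mesenchyme, fell to 61.6% of control (log2 change -0.70, SE 0.08, limma adjusted p = 0.00643) and passed with each pool left out except control 1 (adjusted p = 0.0501). Pax3, the neighbouring protein-coding gene of Epha4 on chromosome 1 and a factor of somites and dorsal neural tube, read 6.91, 7.18 and 6.95 in mutant pools and 8.22, 7.56 and 7.44 in control pools, with groups that did not overlap and no call (log2 change -0.73, SE 0.19, limma adjusted p = 0.0681). Dll3, a Notch ligand of presomitic mesoderm, had a change of 0.29 (SE 0.07) that did not pass.

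The genes whose values over the 6 pools ran most like those of Epha7, the member with the smallest p, were sought among 15152 others by Pearson's correlation. Hdx (r = 0.9997), Tcaf1 (0.9991) and Asap2 (0.9979) came first, with mutant pools of Hdx at 7.62, 7.52 and 7.28 and control pools at 8.09, 8.19 and 7.94. With 6 pools in 2 groups such values are common, and 400 genes had a correlation above 0.95, so the likeness is a description of these arrays.

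**Figure D4:**
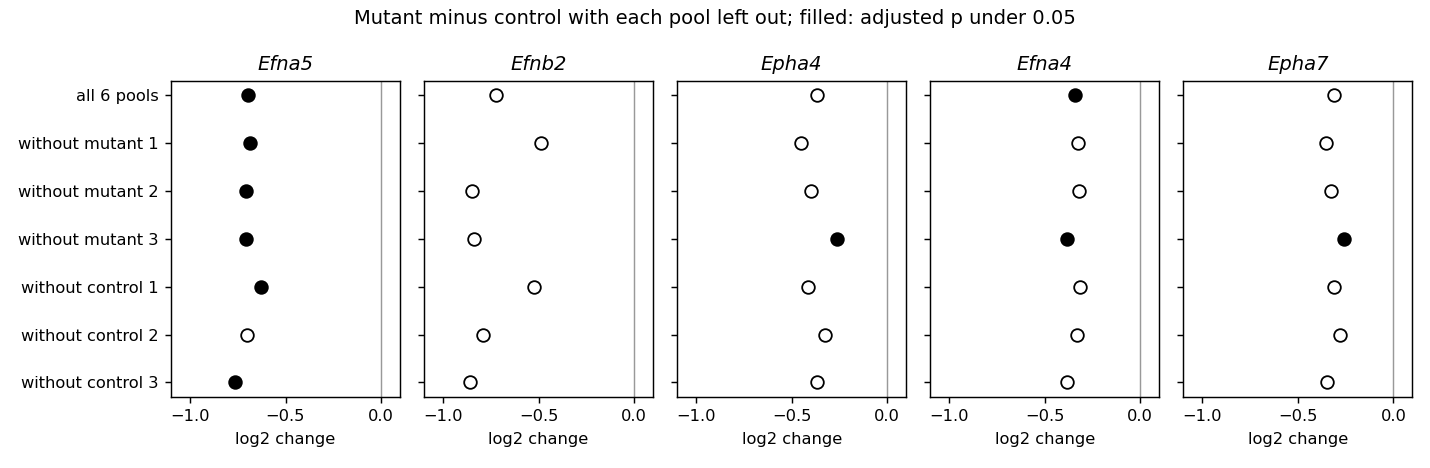
Log2 change, mutant minus control (x axis), of Efna5, Efnb2, Epha4, Efna4 and Epha7 with all 6 pools and with each pool left out in turn (rows); filled points have a limma adjusted p under 0.05. All points lie below 0, from -0.86 to -0.49 for Efnb2 and from -0.45 to -0.26 for Epha4, and Epha4 and Epha7 are filled only without mutant 3.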

How the data were processed

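Each of 6 arrays (3 mutant and 3 control pools) gave 1 column of values. The deposited intensity values came from RMA, per the submitters' processing notes, a method that removes background, brings arrays to a common distribution and combines the probes of a set; no version or filter is given in the sources used here. Values are linear, from 20.5 to 21070, and were turned into log2 with no filter. RMA compresses low values, so changes near the low end of the scale are understated.

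Of 18064 probe sets, 16311 had 1 symbol, 734 several and 1019 none here, and only the first were used. The gene ID of 16284 matched the RefSeq table, which changed 0 symbols. Limma 3.58.1 in R 4.3.3 (lmFit, eBayes, no covariate) was fitted on all of them, with p-values adjusted by Benjamini and Hochberg and calls at 0.05. A gene with several probe sets was read from the one of highest mean level. The fit was tested on simulated data. Permutation tests were exact (scipy 1.17.1). The text names all members, the called genes and up to 4 with the smallest p of each other list, Taf10, and the 3 genes most like the leading member; Mesp2, Efna3, the marker genes and Pax3's position were named after their values were seen. The members and lists were chosen with earlier results of these data known.

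The alternatives were a replicate block, quantile normalization, centring on array medians, a level above the 40th percentile, a test of all probe sets, a trended and a robust eBayes, array weights, Xist as a covariate, the mean of a gene's probe sets and each pool left out. Removing each array's trend with level, and leaving out control 3 with mutant 3, were chosen after seeing the data. Precision is limited by the number of arrays.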

Additional observations from a re-analysis of the deposited data

How the results depend on the processing

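The count of 0 called members was also found with quantile normalization, median centring, all probe sets tested, either other form of eBayes, Xist as a covariate and each array's trend with level removed. It was also 0 with the filter on level, which tested 7 members and left out Epha7. It was 3 with array weights (Epha4, Epha7 and Efna1, all lower), 1 with the mean of a gene's probe sets (Epha7), 2 without control 3 and mutant 3 together (Epha7 and Efnb2) and 0 to 2 with 1 pool left out, the 2 (Epha4 and Epha7) coming without mutant 3. The array weights were 1.284, 4.728 and 0.125 for mutants 1, 2 and 3, so calls with them, that of Efnb3 included, lean largely on mutant 2 for the mutant side. Epha7 has a single probe set, so under the mean its change stayed -0.31. Only the fit over all genes and the adjustment differed there (limma adjusted p = 0.0466). With the replicate block the count of members was 1 (Epha7, adjusted p = 0.0420). The numbers were not taken to pair the pools, since the deviations of same-numbered pools correlated at 0.134, 0.077 and 0.316 and control 2 correlated best with mutant 1 (0.166); the block moved the count over all genes to 1084, against 897. That count, out of 15153, was 3608 with array weights, 986 with the mean of a gene's probe sets, 514 with Xist as a covariate and 2125 without control 3 and mutant 3. With 1 pool left out it was 41 to 1945, lowest without control 1 (41) and control 2 (67) and highest without mutant 3 (1945). Every setting that called a member thus also called more of all genes than the main fit. The 4 calls among other family, downstream and border genes became 18 with array weights, 14 without control 3 and mutant 3, and 1 to 10 with 1 pool left out.

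Changes that switched sign were those of genes near 0. Efnb1 (-0.02) was 0.019 after quantile normalization, 0.0074 with the trend removed and -0.11 to 0.04 with 1 pool, or control 3 and mutant 3, left out. Ephb3 ran from -0.0058, without control 3 and mutant 3, to 0.11. With array weights Efna2 was -0.10, Efna3 -0.19 and Epha1 -0.089, and without control 3 and mutant 3 Efna2 was -0.09 and Efna3 -0.10. With 1 pool left out, Efna2 ran from -0.13 to 0.13, Efna3 from -0.13 to 0.23, Epha1 from -0.0088 to 0.18 and Epha8 from -0.0079 to 0.21. The cause of these differences was not tested. Epha4, Epha5, Epha7, Efnb2, Efna1, Efna4, Efna5, Ephb6 and both probe sets of Ephb1 were negative under every alternative run. Ephb4, Efnb3, Epha2 and Epha10 were positive under every one. The alternatives all use the same 6 arrays or a part of them, and Epha5 kept its sign with values as near 0 as -0.0032. Efna5 lost its call only without control 2, and Efna4 lost its own also with the replicate block (adjusted p = 0.0509), Xist as a covariate (0.0562) and the trend removed (0.0564). The files give no detection calls, so signal over background is not known here.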
